A study of Mus musculus with 24 samples.

Results

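The genes described here are 42 listed genes of DNA replication and S phase, chosen by function as genes of replication origins, forks, polymerases and nucleotide supply. Of them, 40 have a row among the 22053 gene entries of the expression file and all 40 passed the filter on low values, whereas Cdt1 and Gins2 were not analysed here. The study sequenced RNA of sorted skeletal stem and progenitor cells from male mice labelled wild type on postnatal day 10, taken either from spine or from femur and tibia. All cells had been sorted as negative for CD31, TER119, CD45, Thy, 6C3 and CD105 and positive for CD200, and were then divided by embigin (EMB), a surface glycoprotein that chaperones lactate transporters. Vertebral cells were further divided by GFP, which marks cells with a history of Zic1-Cre activity, while long bone cells were all GFP-. There were 4 libraries in each of 6 groups, since vertebral GFP+, vertebral GFP- and long bone cells, called compartments here, were each taken with and without EMB. The titles number the libraries as biological replicates, but all 4 long bone EMB+ titles carry the same number. Whether libraries of a group came from separate animals is not said in the labels. The p-values reflect only how far these libraries spread, which may be partly technical, above all in long bone EMB+ cells. For each gene that spread was pooled over all 6 groups, so a p-value also carries the spread of groups outside its comparison. A GFP+ cell is marked for any past Cre activity and need not express Zic1 at the time of sorting. Titles of the 4 vertebral GFP- EMB+ libraries conflict with their cell type labels, and the cell type labels were used.

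Before S phase, the origin recognition complex and CDC6 load the ring-shaped MCM2-7 helicase on DNA, and CDC45 and the GINS complex later join it to form the active helicase. DNA polymerase alpha with primase then starts each strand, polymerases epsilon and delta extend it on the sliding clamp PCNA, and FEN1 and DNA ligase 1 join the fragments of the lagging strand. Transcription of many of these genes rises toward S phase under the E2F factors, so that in a mixed population their summed RNA reflects how many cells cycle as well as the level per cell.

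Promoter stretches are shown because genes of this kind are textbook targets of E2F. RefSeq promoter windows on GRCm38.p6, each 300 bases long with 250 bases before the start, were found for 34 of the 40 genes. An exact E2F word (TTTCCCGC, TTTCGCGC, TTTGCCGC or TTTGGCGC, read on both strands, where words can overlap) was in a window of 13 of the 34 genes (38.2%) and of 436 of the 9038 tested genes with a window (4.82%). The 5 stretches printed here, of 60 bases each, lie upstream of the RefSeq start of their window. All are written along the strand of the gene, with the E2F words in capitals. They come from Cdc6 at chr11:98907987-98908046 on the + strand, Mcm5 at chr8:75109334-75109393 on the + strand, Mcm6 at chr1:128359719-128359778 on the - strand, Pola1 at chrX:93632260-93632319 on the - strand and Uhrf1 at chr17:56304102-56304161 on the + strand.
Cdc6: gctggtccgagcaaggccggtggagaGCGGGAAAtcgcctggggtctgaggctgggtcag
Mcm5: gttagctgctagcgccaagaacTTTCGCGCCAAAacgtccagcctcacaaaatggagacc
Mcm6: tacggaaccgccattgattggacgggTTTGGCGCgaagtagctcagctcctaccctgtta
Pola1: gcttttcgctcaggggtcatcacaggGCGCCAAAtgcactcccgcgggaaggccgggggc
Uhrf1: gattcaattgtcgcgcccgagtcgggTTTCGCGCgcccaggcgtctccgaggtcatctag
The Cdc6 and Uhrf1 stretches lie inside the span given for the gene in the expression data, which begins at 98907801 and at 56303321. They are upstream only of the RefSeq start used for that window. The Mcm5 stretch held 2 overlapping words, and the whole Mcm6 window held 3. The CCAAT box was in windows of 22 of the 34 genes (64.7%) against 43.0% of tested genes. The GC box GGGCGG was in 26 (76.5%) against 70.6%. The word TTTGAA, a form of the cell cycle homology region, was in 5 (14.7%) against 14.0%. A match describes these letters and not a bound site, and windows without an E2F word, such as those of Rrm2, Tk1 and Pcna, say nothing about the factor.

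Emb itself was at 30.1 FPKM or more in every EMB+ library and at 1.32 or less in every EMB- library. FPKM is a read count scaled by gene length and library size. The summed FPKM ran from 382364 to 568495 per library, and between 10158 and 11204 genes reached an FPKM of 1. All 12 chondrocyte markers checked reached 1 FPKM in at least 2 libraries of every group. Of the 40 replication genes, 29 were at 1 FPKM or more in all 24 libraries. Orc1 was the 1 gene that reached 1 FPKM in fewer than 4 EMB+ libraries. Exons of 13 members share bases with a gene on the opposite strand, and the library kits do not mark strand. The longest such overlaps were 4648 bases of Chaf1a with Ubxn6 and 1909 bases of Fen1 with the antisense gene Gm10143. Reads within these shared bases cannot be told apart by strand. Pole2 also shares 245 exon bases with the protein-coding gene Gm49384 on its own strand.

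The replication genes differed far more between the EMB- groups than between the EMB+ groups. Their summed level was 1373 ± 567 FPKM (SD, n = 4) in long bone EMB- cells. It was 616 ± 74.4 among vertebral EMB- cells that were GFP-, and lowest, at 221 ± 11.0, among those that were GFP+. The 3 EMB+ groups lay closer together, at 425 ± 36.7 in vertebral GFP+, 448 ± 37.4 in vertebral GFP- and 323 ± 6.08 in long bone cells. Long bone EMB+ libraries (316 to 330) still lay below all those of vertebral GFP+ EMB+ (378 to 467) and GFP- EMB+ cells (422 to 503). Mean levels were highest in long bone EMB- cells for 39 of the 40 genes and lowest in vertebral GFP+ EMB- cells for 39, with Mcm6 the exception in both. Among EMB+ groups the ratio of the highest to the lowest mean ran from 1.03 to 3.20 (median 1.40), and among EMB- groups from 1.65 to 46.6 (median 6.41). Over all tested genes with a mean of 1 FPKM or more in each group compared, the median ratio was 1.23 among EMB+ and 1.43 among EMB- groups. The replication genes were not cut by that minimum. Cdc6, with the ratio of 46.6, had a mean of 0.375 FPKM in vertebral GFP+ EMB- cells. In such sorted bulk samples, fewer cycling cells and less RNA per cell cannot be told apart.

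**Figure D1:**
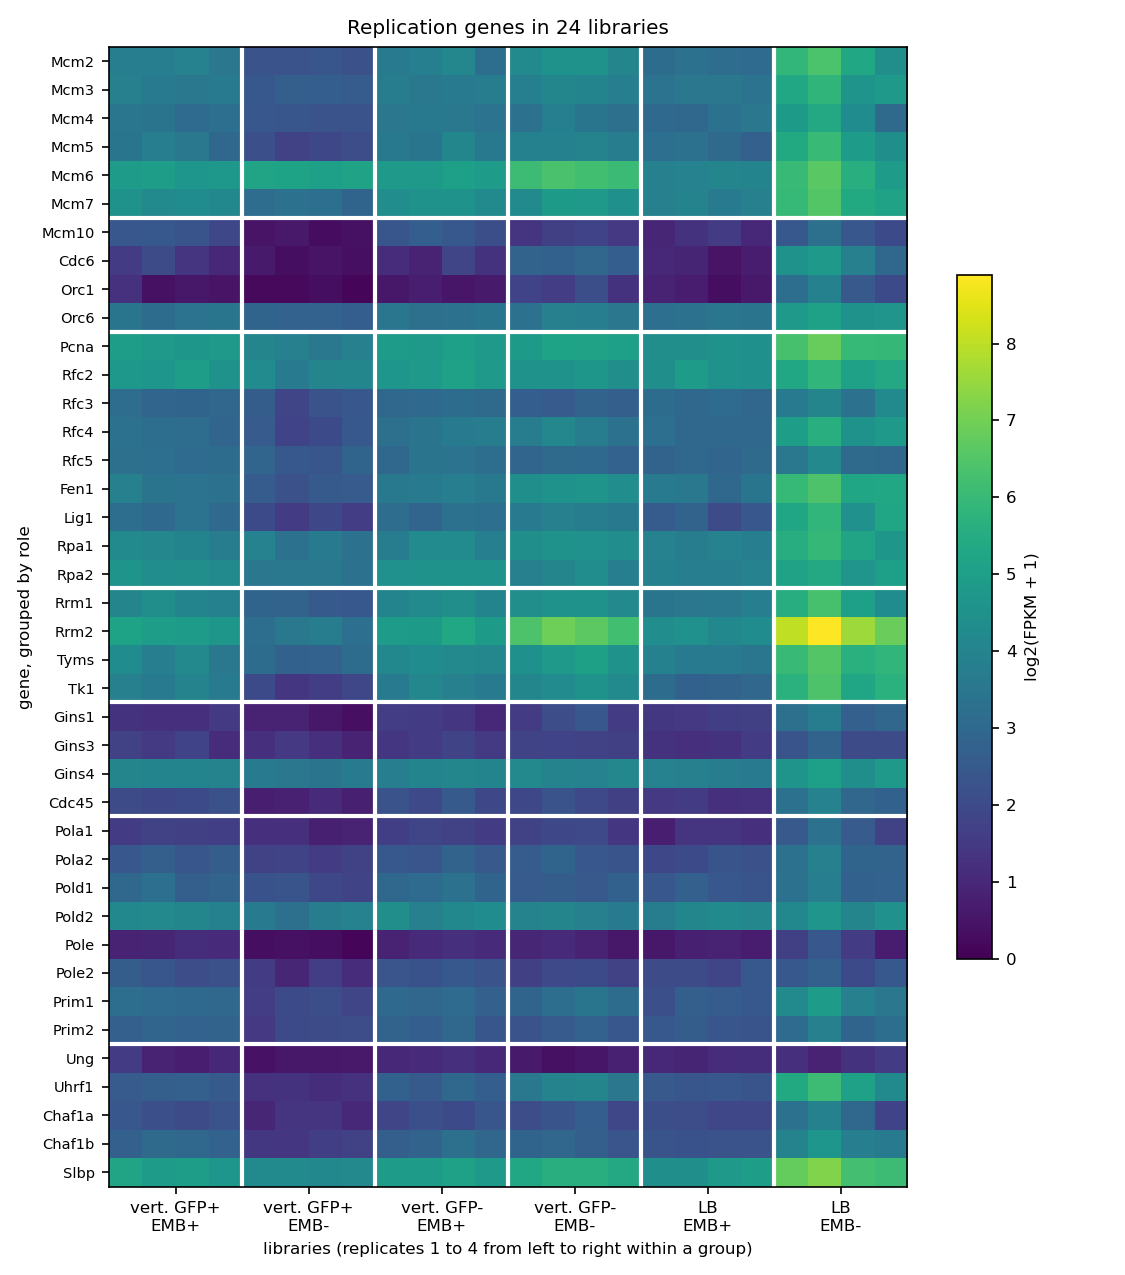
Level of each of the 40 replication genes, as log2(FPKM + 1), in the 24 libraries, with genes in rows grouped by role and replicates 1 to 4 side by side in each group (vert., vertebral; LB, long bone). By group mean, vertebral GFP+ EMB- columns are the darkest and long bone EMB- columns the brightest for 39 of 40 genes each, and Mcm6 departs from both.

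Long bone EMB- libraries spread the most among themselves, and through the pooled estimate this spread enters the p-values of every comparison. The summed level of the 40 genes was 1409, 2159, 1023 and 902 FPKM in replicates 1 to 4. Replicate 2 was the highest of these 4 libraries for 38 genes and replicate 4 the lowest for 23. Without replicate 4, 37 of the 40 genes were lower in EMB+ than in EMB- long bone cells, as many as with it, and the median difference of mean log2(FPKM + 1) was -1.75 in place of -1.64. Without replicate 2 that median was -1.38.

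EMB+ and EMB- cells differed in opposite directions in the vertebral GFP+ and long bone compartments. Differences are of mean log2(FPKM + 1), tested with limma and Benjamini-Hochberg adjustment over 11767 genes at 0.05. In vertebral GFP+ cells 37 of the 40 genes were higher in EMB+ cells and 0 lower, where 42.1% of all tested genes were higher. The median difference of the 40 genes was 0.97, against 0.32 for all genes. That shift of all genes was removed by median-ratio scaling, which left a median of 0.63 for the replication genes, against 0.01 for all genes. Under that scaling 25 of the 40 genes were higher and 1 lower. The share of all tested genes is not given for that scaling, and the 42.1% does not apply to it. In long bone cells 37 genes were lower in EMB+ cells and 0 higher, where 16.0% of tested genes were lower. The median was -1.64 there, against 0.08 over all genes. The 34 genes that were both higher in vertebral GFP+ and lower in long bone EMB+ cells made up 85.0% of the members, against 5.16% of all tested genes with that pair of calls.

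Vertebral GFP- cells gave a mixed picture. Of the 40 genes, 5 were higher in EMB+ cells, where 41.7% of tested genes were higher, and 12 were lower, where 10.6% of tested genes were lower. The split depended on scaling, with 0 higher and 21 lower after median-ratio scaling and 1 higher and 19 lower after quantile normalization. The shares of 41.7% and 10.6% belong to the unscaled fit, and shares of all tested genes under these scalings are not given. The median was -0.17, against 0.30 for all genes, and -0.56 against -0.03 after median-ratio scaling. The 12 lower genes held the licensing factors Cdc6 and Orc1, the helicase subunits Mcm2 and Mcm6, the nucleotide enzymes Rrm2, Tyms and Tk1, and also Fen1, Lig1, Gins1, Uhrf1 and Slbp. The 5 higher genes were Mcm10, Pold1, Pole2, Rpa2 and Ung, and of these Mcm10 alone stayed higher after quantile normalization.

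**Figure D2:**
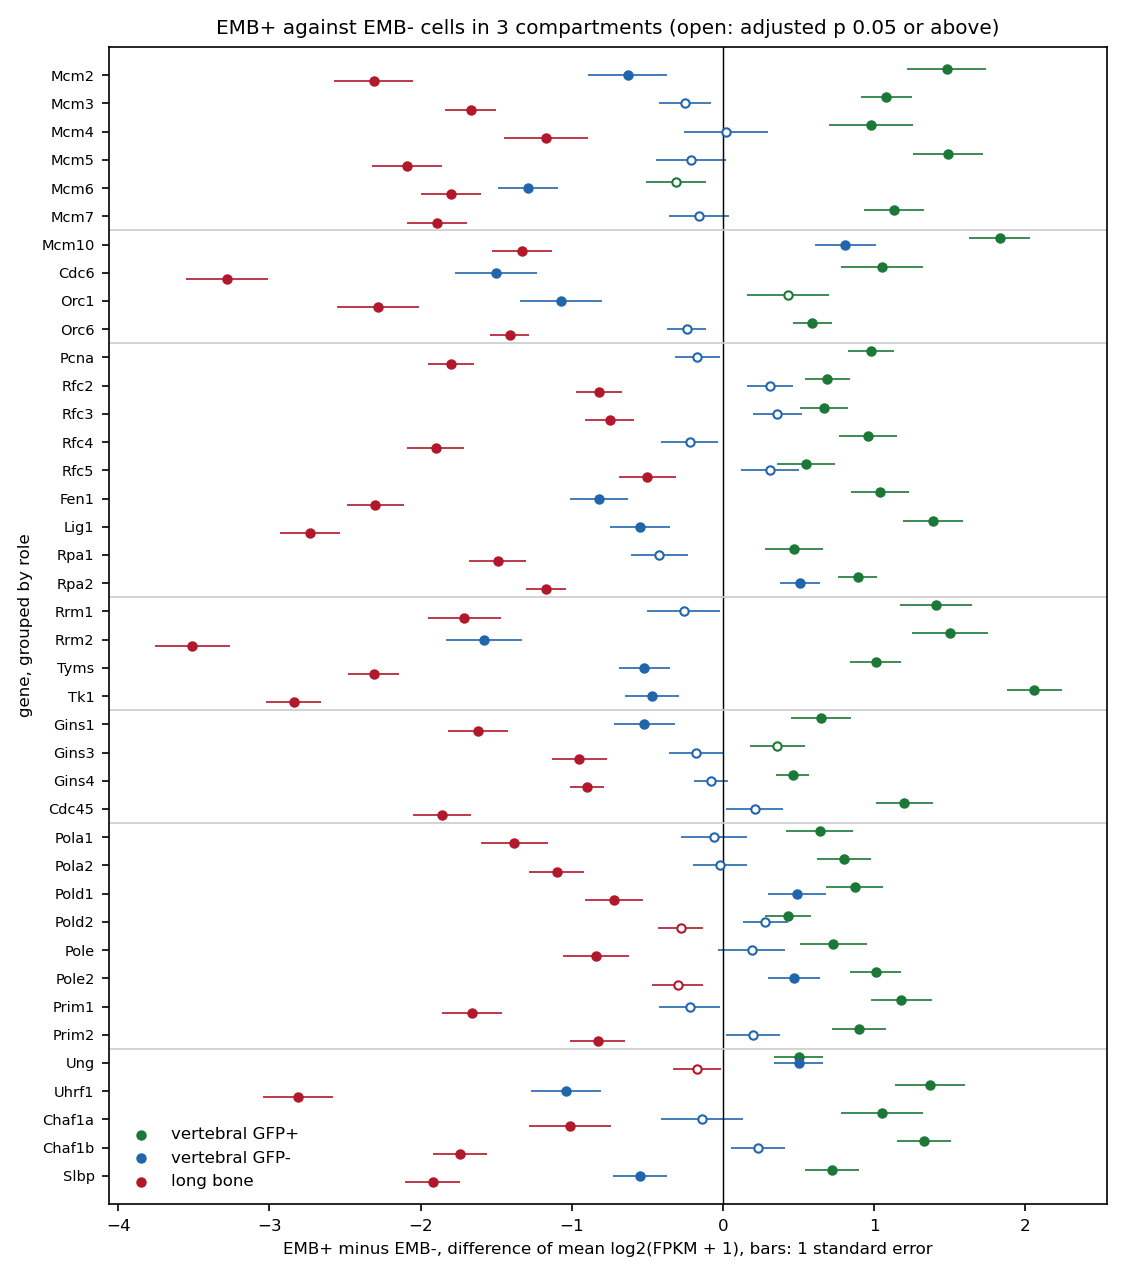
Difference between EMB+ and EMB- cells for each gene, as the difference of mean log2(FPKM + 1) with 1 standard error, in vertebral GFP+ (green), vertebral GFP- (blue) and long bone cells (red). Filled points have an adjusted p under 0.05, and the green points lie right of 0 for 39 of 40 genes, the red points left of 0 for all 40, and the blue points on both sides.

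Markers of red blood cell precursors moved with part of these differences. The 14 erythroid markers in the file, globins included, summed to 20505 to 43173 FPKM in long bone EMB- libraries and to 7382 to 12523 in vertebral GFP- EMB- libraries. The other 4 groups held 224 to 997 FPKM, and no marker was at 0 throughout any group. The erythroid markers were lower in EMB+ cells for 14 of 14 genes in long bone and for 13 of 14 in vertebral GFP- cells. In vertebral GFP+ cells 1 of 14 was higher and 0 lower, with sums of 279 to 633 FPKM in EMB+ and 284 to 997 in EMB- libraries. That sum is mostly globins, and without them the other 10 markers summed to 85.3 to 98.9 FPKM in EMB+ and 26.6 to 43.7 in EMB- libraries, without overlap and in the direction of the replication genes. The 1 higher marker was Tfrc, the transferrin receptor, which dividing cells of other types also express. Tfrc was at 79.1, 72.5, 80.0 and 73.2 FPKM with EMB and 17.3, 17.0, 14.4 and 11.6 without, a log2 difference of 2.28 (SE 0.31, adjusted p = 1.7e-06). Leaving out Tfrc too, a step chosen after its values were seen, the 9 remaining markers summed to 6.17 to 18.9 FPKM in EMB+ and 9.29 to 26.7 in EMB- libraries. The part of erythroid RNA in the differences of any compartment was not tested. Skeletal muscle markers (6 genes) were also highest in long bone EMB- libraries, at 370 to 845 FPKM against 108 or less elsewhere, and Ckm, Myod1 and Myog were each listed at 0 in all libraries of some group other than this one. Leukocyte markers (19 genes) reached their highest sum in vertebral GFP- EMB+ libraries, at 561 to 3965 FPKM, with 28.8 to 950 elsewhere, and Mpo was listed at 0 throughout vertebral GFP+ EMB- cells. Their part was not tested either.

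**Figure D3:**
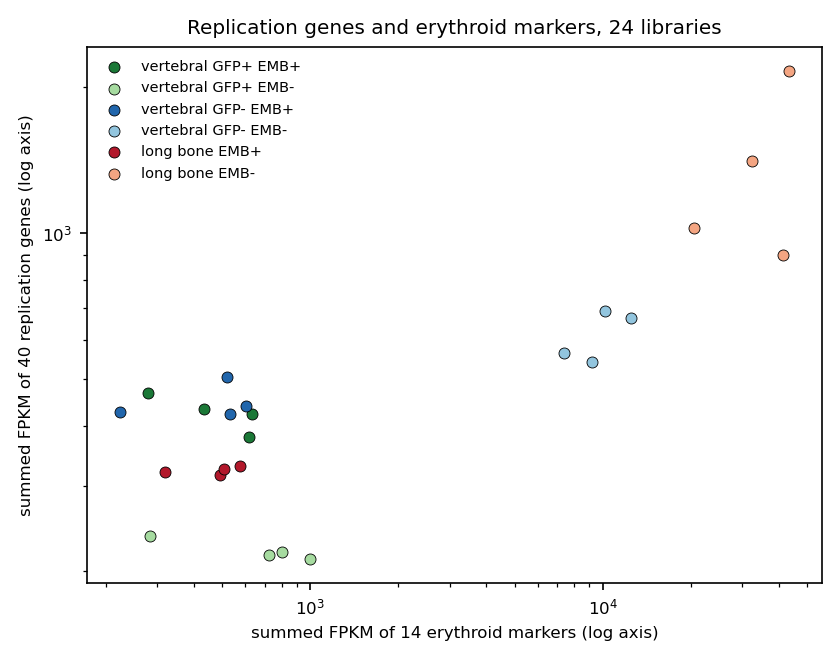
Summed FPKM of the 40 replication genes against summed FPKM of 14 erythroid markers, both on log axes, with 1 point per library coloured by group. Vertebral GFP+ EMB- libraries (284 to 997) and EMB+ libraries (279 to 633) overlap on the erythroid axis, where globins make up most of the sum, but do not overlap in replication genes. Long bone EMB- replicate 4 had 902 FPKM of replication genes at 41163 FPKM of erythroid markers. Without globins those markers summed to 1609, 2873, 1261 and 766 FPKM in long bone EMB- replicates 1 to 4. Replicate 4 was thus the lowest of them, as it was in replication genes.

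Within the MCM2-7 helicase, 5 of 6 subunits were higher in vertebral GFP+ EMB+ cells and all 6 were lower in long bone EMB+ cells. Of all tested genes, 42.1% were higher in the former comparison and 16.0% lower in the latter. Counts by role, here and below, are without median-ratio scaling. Mcm2 was at 12.8, 13.0, 14.5 and 10.4 FPKM in the vertebral GFP+ EMB+ libraries and at 3.84, 3.86, 4.23 and 3.57 in their EMB- counterparts. Mcm2 values of vertebral GFP- cells were 12.0, 13.3, 16.2 and 8.18 FPKM with EMB and 17.6, 22.6, 22.5 and 15.4 without it. Long bone Mcm2 was at 7.79, 9.08, 8.0 and 7.62 FPKM in EMB+ libraries and at 58.0, 82.4, 39.4 and 20.1 in EMB- ones. Mcm2 did not overlap between EMB states in vertebral GFP+ or long bone cells but did in vertebral GFP- cells. Mcm2 had a log2 difference of 1.48 (SE 0.26, adjusted p = 4.5e-05) in vertebral GFP+ cells, -0.63 (SE 0.26, adjusted p = 0.041) in vertebral GFP- cells and -2.31 (SE 0.26, adjusted p = 8.5e-08) in long bone. The vertebral GFP- call of Mcm2 was lost without any 1 of EMB- replicates 1, 2 and 3 or EMB+ replicates 1, 2 and 4, with differences of -0.68 to -0.46. Mcm3, Mcm4, Mcm5 and Mcm7 had log2 differences between 0.98 and 1.49 in vertebral GFP+ cells, all higher, and between -2.09 and -1.17 in long bone, all lower, with none past the threshold in vertebral GFP- cells. Mcm4 in long bone had a wide spread, since EMB- replicate 4 gave 7.39 FPKM where the other 3 gave 18.9 to 40.1. Without that library the Mcm4 difference in long bone was -1.62.

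Mcm6 stood apart from its partners. The Mcm6 values of vertebral GFP+ cells were 29.0, 29.8, 24.5 and 25.5 FPKM with EMB and 35.8, 34.5, 31.2 and 33.8 without. Vertebral GFP- Mcm6 values were 26.7, 27.4, 31.2 and 28.5 FPKM in EMB+ libraries and 67.8, 79.1, 72.3 and 65.5 in EMB- ones. For long bone Mcm6, EMB+ libraries gave 13.8, 14.2, 15.7 and 15.0 FPKM and EMB- libraries 62.8, 96.2, 46.4 and 29.3. Vertebral GFP+ Mcm6 thus ran slightly lower with EMB, without overlap, where the other 5 subunits ran higher. Mcm6 had a log2 difference of -0.31 (SE 0.20, adjusted p = 0.2) in vertebral GFP+ cells, -1.29 (SE 0.20, adjusted p = 7e-06) in vertebral GFP- cells and -1.80 (SE 0.20, adjusted p = 6.6e-08) in long bone. The vertebral GFP+ difference passed the threshold in the lower direction after quantile normalization (-0.65) or median-ratio scaling (-0.69), and at -0.31 with library weights or a fit of the 2 compared groups alone. MCM2 to MCM7 form a ring with 1 copy of each subunit, and FPKM allows levels of different genes to be compared per length. The level of Mcm6 over the mean level of the other 5 was 7.42, 6.87, 6.35 and 7.66 in vertebral GFP+ EMB- libraries. In vertebral GFP- EMB- libraries that ratio was 4.70, 4.21, 4.07 and 4.64. It lay between 1.96 and 2.40 in all 8 vertebral EMB+ libraries and between 1.35 and 1.66 in all 8 long bone libraries. The excess of Mcm6 was thus largest in vertebral EMB- cells of either GFP state, with no overlap with any other group.

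**Figure D4:**
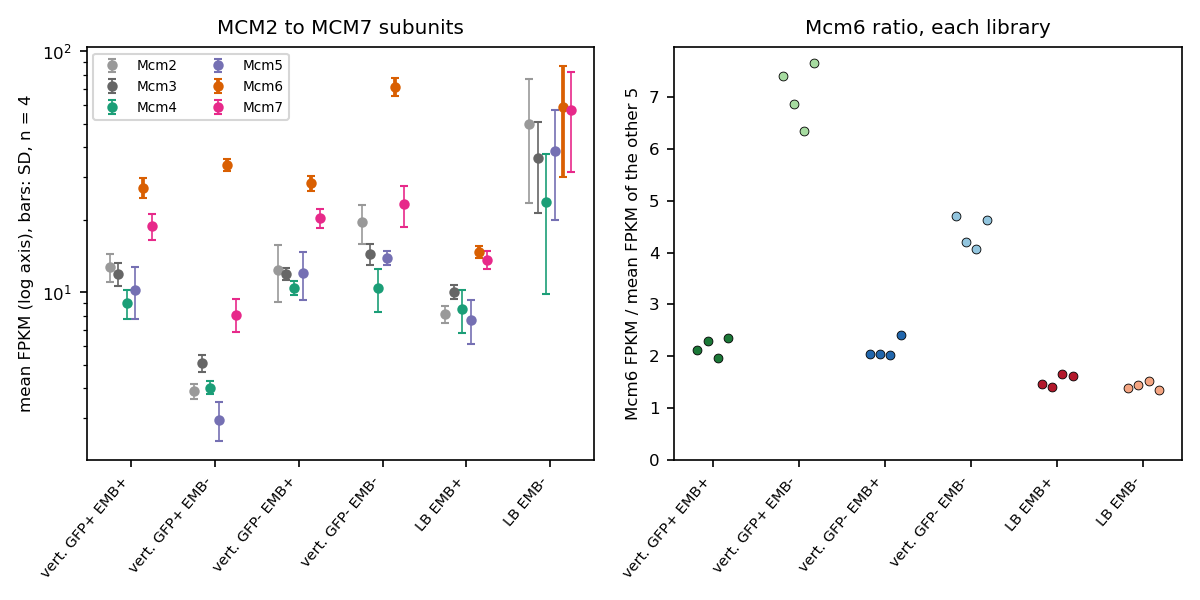
Left, mean FPKM (log axis) of the 6 subunits of the MCM2-7 helicase in each group, with bars for the SD over 4 libraries. Right, the ratio of Mcm6 to the mean of the other 5 subunits in each library, which was 6.35 to 7.66 in vertebral GFP+ EMB- and 4.07 to 4.70 in vertebral GFP- EMB- libraries and 2.40 or less elsewhere.

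Of the 4 origin licensing and firing genes, 3 were higher with EMB in vertebral GFP+ cells, where 42.1% of tested genes were. All 4 were lower in long bone, where 16.0% of tested genes were. MCM10 helps to start the loaded helicase. Mcm10 was at 4.33, 4.50, 3.90 and 2.79 FPKM in the vertebral GFP+ EMB+ libraries and at 0.394, 0.527, 0.230 and 0.310 in their EMB- counterparts. Mcm10 values of vertebral GFP- cells were 4.19, 5.24, 4.41 and 3.41 FPKM with EMB and 1.59, 2.24, 2.46 and 1.77 without it. Long bone Mcm10 was at 0.934, 1.47, 2.01 and 0.973 FPKM in EMB+ libraries and at 4.51, 8.71, 4.30 and 3.02 in EMB- ones. Mcm10 was higher with EMB in both vertebral compartments and lower in long bone, each without overlap. Mcm10 had a log2 difference of 1.83 (SE 0.20, adjusted p = 8.1e-08) in vertebral GFP+ cells, 0.81 (SE 0.20, adjusted p = 0.0017) in vertebral GFP- cells and -1.33 (SE 0.20, adjusted p = 1.1e-05) in long bone. The vertebral GFP- difference of Mcm10 was 0.51 after median-ratio scaling and missed the threshold. In vertebral GFP+ cells the mean Mcm10 level was 10.6-fold higher in EMB+ libraries. CDC6 is the loader that places the helicase on the origin. The Cdc6 values of vertebral GFP+ cells were 1.91, 3.23, 1.58 and 1.05 FPKM with EMB and 0.545, 0.268, 0.399 and 0.286 without. Vertebral GFP- Cdc6 values were 1.17, 0.835, 2.66 and 1.49 FPKM in EMB+ libraries and 6.11, 5.76, 6.61 and 5.35 in EMB- ones. For long bone Cdc6, EMB+ libraries gave 1.02, 0.871, 0.387 and 0.644 FPKM and EMB- libraries 21.9, 27.4, 13.5 and 7.08. Cdc6 differed without overlap in each compartment, in the opposite direction to Mcm10 in vertebral GFP- cells. Cdc6 had a log2 difference of 1.05 (SE 0.27, adjusted p = 0.003) in vertebral GFP+ cells, -1.50 (SE 0.27, adjusted p = 7.3e-05) in vertebral GFP- cells and -3.28 (SE 0.27, adjusted p = 6.5e-10) in long bone. At these low levels the pseudocount matters, and with a pseudocount of 5 the Cdc6 difference in vertebral GFP+ cells was 0.36 and missed the threshold.

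ORC1 and ORC6 are subunits of the origin recognition complex. Orc1 was at 1.41, 0.312, 0.472 and 0.368 FPKM in the vertebral GFP+ EMB+ libraries and at 0.179, 0.167, 0.262 and 0.120 in their EMB- counterparts. Orc1 values of vertebral GFP- cells were 0.500, 0.678, 0.464 and 0.565 FPKM with EMB and 2.44, 2.07, 3.36 and 1.47 without it. Long bone Orc1 was at 0.831, 0.586, 0.262 and 0.508 FPKM in EMB+ libraries and at 8.19, 14.1, 4.60 and 3.00 in EMB- ones. Most vertebral GFP+ EMB+ values of Orc1 were under 0.5 FPKM, and replicate 1 stood at 1.41. Orc1 had a log2 difference of 0.43 (SE 0.27, adjusted p = 0.19) in vertebral GFP+ cells, -1.07 (SE 0.27, adjusted p = 0.0018) in vertebral GFP- cells and -2.28 (SE 0.27, adjusted p = 2.3e-07) in long bone. With a pseudocount of 0.1 the vertebral GFP+ difference of Orc1 was 1.20 and passed the threshold (adjusted p = 0.02), and at 0.43 it passed with the compared groups alone in the fit (adjusted p = 0.046). Orc6 had log2 differences of 0.59 (SE 0.13, adjusted p = 0.00066) in the vertebral GFP+ compartment and -1.41 (SE 0.13, adjusted p = 3.2e-09) in long bone.

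CDC45 and GINS turn the loaded ring into the moving helicase. Cdc45 differed by 1.20 (SE 0.19, adjusted p = 1.7e-05) in the vertebral GFP+ compartment and by -1.86 (SE 0.19, adjusted p = 2.5e-08) in long bone, and its vertebral GFP- difference of 0.21 missed the threshold. The Gins1 values of vertebral GFP+ cells were 1.48, 1.36, 1.33 and 1.83 FPKM with EMB and 0.862, 0.797, 0.498 and 0.286 without. Vertebral GFP- Gins1 values were 2.07, 1.90, 1.64 and 1.03 FPKM in EMB+ libraries and 1.94, 3.34, 4.32 and 1.94 in EMB- ones. For long bone Gins1, EMB+ libraries gave 1.74, 1.75, 2.11 and 2.24 FPKM and EMB- libraries 8.80, 12.4, 5.69 and 6.70. Gins1 was low throughout, above 2.24 FPKM only in vertebral GFP- EMB- and long bone EMB- libraries. Gins1 had a log2 difference of 0.65 (SE 0.20, adjusted p = 0.011) in vertebral GFP+ cells, -0.52 (SE 0.20, adjusted p = 0.036) in vertebral GFP- cells and -1.62 (SE 0.20, adjusted p = 6.5e-07) in long bone. The vertebral GFP+ call of Gins1 was lost after quantile normalization (0.50), after median-ratio scaling (0.47) and with a pseudocount of 5 (0.21). With that pseudocount the vertebral GFP- difference was -0.24 and missed the threshold, as it did without the filter. The vertebral GFP- call of Gins1 was lost, at -0.52 to -0.35, without EMB- replicate 2 or 3 or EMB+ replicate 3 or 4. Gins3 was at 2.36, 1.82, 2.49 and 1.19 FPKM in the vertebral GFP+ EMB+ libraries and at 1.29, 1.75, 1.36 and 0.815 in their EMB- counterparts. Gins3 values of vertebral GFP- cells were 1.64, 1.99, 2.57 and 1.87 FPKM with EMB and 2.55, 2.47, 2.38 and 2.21 without it. Long bone Gins3 was at 1.47, 1.30, 1.49 and 2.01 FPKM in EMB+ libraries and at 3.98, 6.16, 3.09 and 3.06 in EMB- ones. Gins3 overlapped between EMB states in both vertebral compartments but not in long bone. Gins3 had a log2 difference of 0.36 (SE 0.18, adjusted p = 0.093) in vertebral GFP+ cells, -0.18 (SE 0.18, adjusted p = 0.4) in vertebral GFP- cells and -0.95 (SE 0.18, adjusted p = 0.00014) in long bone. Without EMB+ replicate 4 (0.49), and with library weights (0.36), Gins3 passed the threshold in vertebral GFP+ cells. It passed in vertebral GFP- cells after median-ratio scaling (-0.47). Gins4 varied least among these subunits, from 10.8 ± 0.758 FPKM in vertebral GFP+ EMB- cells to 25.4 ± 4.81 FPKM in long bone EMB- cells. Per length, Gins4 stood 3.42 to 20.6 times above the mean of Gins1 and Gins3 in single libraries, although the 3 proteins belong to 1 complex.

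Polymerase and primase genes had the smallest median difference of the roles in long bone. Their median log2 difference was 0.84 in vertebral GFP+ cells, where 8 of 8 were higher, against 42.1% of tested genes. It was -0.84 in long bone, where 6 of 8 were lower, against 16.0% of tested genes. Pold1 encodes the catalytic subunit of polymerase delta. Pold1 was at 7.06, 8.57, 5.43 and 6.06 FPKM in the vertebral GFP+ EMB+ libraries and at 3.67, 4.01, 2.79 and 2.52 in their EMB- counterparts. Pold1 values of vertebral GFP- cells were 7.09, 7.69, 9.22 and 6.32 FPKM with EMB and 4.81, 5.13, 4.57 and 5.83 without it. Long bone Pold1 was at 4.32, 5.64, 4.29 and 3.97 FPKM in EMB+ libraries and at 9.31, 13.0, 5.80 and 6.02 in EMB- ones. Pold1 was higher with EMB in both vertebral compartments without overlap. Pold1 had a log2 difference of 0.87 (SE 0.19, adjusted p = 0.00052) in vertebral GFP+ cells, 0.49 (SE 0.19, adjusted p = 0.031) in vertebral GFP- cells and -0.72 (SE 0.19, adjusted p = 0.004) in long bone. With the compared groups alone in the limma fit, the long bone difference of Pold1 missed the threshold (adjusted p = 0.062). The vertebral GFP- difference of Pold1 was 0.14 after median-ratio scaling and missed the threshold, which it also missed, at 0.40 to 0.49, without any 1 of EMB- replicates 1, 2 and 3 or EMB+ replicates 2 and 3. Pold2, an accessory subunit of the same polymerase, was nearly even. The Pold2 values of vertebral GFP+ cells were 16.8, 17.3, 15.9 and 13.9 FPKM with EMB and 11.7, 8.72, 12.2 and 14.4 without. Vertebral GFP- Pold2 values were 20.1, 13.7, 16.9 and 18.8 FPKM in EMB+ libraries and 14.8, 15.5, 13.8 and 12.1 in EMB- ones. For long bone Pold2, EMB+ libraries gave 12.6, 15.8, 17.5 and 16.4 FPKM and EMB- libraries 16.8, 23.6, 15.5 and 21.5. Pold2 overlapped between EMB states in all 3 compartments. Pold2 had a log2 difference of 0.43 (SE 0.15, adjusted p = 0.021) in vertebral GFP+ cells, 0.28 (SE 0.15, adjusted p = 0.12) in vertebral GFP- cells and -0.28 (SE 0.15, adjusted p = 0.15) in long bone. In vertebral GFP+ cells the Pold2 difference was 0.06 after median-ratio scaling, and it missed the threshold without EMB- replicate 2 (0.30) or EMB+ replicate 1 (0.40) or 2 (0.39). Vertebral GFP- Pold2 passed it without EMB+ replicate 2 (0.38).

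Pole2 is the second subunit of polymerase epsilon. Pole2 was at 5.19, 4.19, 3.34 and 3.62 FPKM in the vertebral GFP+ EMB+ libraries and at 1.97, 0.951, 2.08 and 1.18 in their EMB- counterparts. Pole2 values of vertebral GFP- cells were 4.13, 3.77, 4.45 and 3.80 FPKM with EMB and 2.21, 2.94, 3.04 and 2.40 without it. Long bone Pole2 was at 3.15, 3.23, 2.60 and 4.47 FPKM in EMB+ libraries and at 4.50, 5.65, 2.95 and 4.49 in EMB- ones. Pole2 separated the EMB states in both vertebral compartments and overlapped in long bone. Pole2 had a log2 difference of 1.01 (SE 0.17, adjusted p = 3.9e-05) in vertebral GFP+ cells, 0.47 (SE 0.17, adjusted p = 0.026) in vertebral GFP- cells and -0.30 (SE 0.17, adjusted p = 0.19) in long bone. The vertebral GFP- difference of Pole2 missed the threshold without EMB- replicate 1 or 4 and without EMB+ replicate 1 or 3. After median-ratio scaling (0.15) or quantile normalization (0.27) the call was lost too. The primase subunits Prim1 and Prim2 differed by 1.18 and 0.90 in vertebral GFP+ cells and by -1.66 and -0.83 in long bone. Pole, the large catalytic subunit of polymerase epsilon, was the lowest of the polymerase genes, at 1.03 ± 0.179 FPKM with EMB and 0.226 ± 0.102 FPKM without EMB in vertebral GFP+ cells. Pola1 and Pola2, subunits of polymerase alpha, differed by 0.64 and 0.80 in vertebral GFP+ cells and by -1.38 and -1.10 in long bone, and neither passed in vertebral GFP- cells.

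Genes of the sliding clamp, its loader and strand processing numbered 9. All 9 were higher in vertebral GFP+ EMB+ cells, as were 42.1% of tested genes, and lower in long bone EMB+ cells, as were 16.0%. PCNA is the clamp that holds polymerases on DNA. Pcna was at 30.2, 26.9, 24.8 and 26.7 FPKM in the vertebral GFP+ EMB+ libraries and at 15.5, 13.6, 10.8 and 13.6 in their EMB- counterparts. Pcna values of vertebral GFP- cells were 29.3, 26.3, 31.1 and 26.8 FPKM with EMB and 27.8, 35.1, 33.8 and 31.3 without it. Long bone Pcna was at 19.9, 20.2, 22.1 and 21.2 FPKM in EMB+ libraries and at 77.3, 113, 60.5 and 59.9 in EMB- ones. Pcna did not overlap in vertebral GFP+ or long bone cells and did in vertebral GFP- cells. Pcna had a log2 difference of 0.98 (SE 0.15, adjusted p = 6.5e-06) in vertebral GFP+ cells, -0.17 (SE 0.15, adjusted p = 0.35) in vertebral GFP- cells and -1.80 (SE 0.15, adjusted p = 3.4e-10) in long bone. In vertebral GFP- cells the Pcna difference passed the threshold after quantile normalization (-0.52) and median-ratio scaling (-0.56). The clamp loader genes Rfc2, Rfc3, Rfc4 and Rfc5 ranged from 0.55 to 0.96 in vertebral GFP+ cells. In long bone they ranged from -1.90 to -0.50, Rfc4 having moved the most in both. FEN1 cuts the flaps of lagging strand fragments. The Fen1 values of vertebral GFP+ cells were 13.8, 9.64, 9.55 and 9.23 FPKM with EMB and 5.02, 3.64, 4.75 and 4.84 without. Vertebral GFP- Fen1 values were 11.1, 11.7, 12.8 and 11.0 FPKM in EMB+ libraries and 20.4, 22.2, 23.1 and 19.4 in EMB- ones. For long bone Fen1, EMB+ libraries gave 12.0, 10.8, 7.11 and 10.1 FPKM and EMB- libraries 61.7, 84.2, 37.6 and 38.1. Fen1 separated the EMB states in each compartment, and GFP- EMB- vertebral levels exceeded all EMB+ levels. Fen1 had a log2 difference of 1.04 (SE 0.19, adjusted p = 9.2e-05) in vertebral GFP+ cells, -0.82 (SE 0.19, adjusted p = 0.00099) in vertebral GFP- cells and -2.30 (SE 0.19, adjusted p = 5.8e-10) in long bone.

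Lig1 encodes the ligase that seals those fragments. Lig1 was at 8.21, 7.17, 9.46 and 7.13 FPKM in the vertebral GFP+ EMB+ libraries and at 3.01, 1.93, 2.76 and 2.04 in their EMB- counterparts. Lig1 values of vertebral GFP- cells were 7.98, 6.45, 9.20 and 8.49 FPKM with EMB and 11.3, 13.8, 12.4 and 11.2 without it. Long bone Lig1 was at 4.96, 6.13, 3.14 and 4.34 FPKM in EMB+ libraries and at 36.2, 56.9, 21.5 and 36.4 in EMB- ones. No compartment showed overlap for Lig1, and its direction in vertebral GFP+ cells was opposite to the other 2 compartments. Lig1 had a log2 difference of 1.39 (SE 0.20, adjusted p = 4e-06) in vertebral GFP+ cells, -0.55 (SE 0.20, adjusted p = 0.025) in vertebral GFP- cells and -2.73 (SE 0.20, adjusted p = 6e-11) in long bone. Without EMB- replicate 2 (-0.49) or EMB+ replicate 2 (-0.46), Lig1 missed the threshold in vertebral GFP- cells. Rpa1 and Rpa2 belong to the complex that coats single-stranded DNA, and in vertebral GFP- cells they pointed in opposite directions. The Rpa2 values of vertebral GFP+ cells were 23.1, 19.6, 19.9 and 17.9 FPKM with EMB and 10.4, 10.9, 10.9 and 9.29 without. Vertebral GFP- Rpa2 values were 21.7, 22.1, 22.1 and 21.9 FPKM in EMB+ libraries and 13.5, 15.4, 19.7 and 12.8 in EMB- ones. For long bone Rpa2, EMB+ libraries gave 14.1, 13.0, 12.8 and 14.4 FPKM and EMB- libraries 33.8, 40.4, 23.7 and 31.7. Rpa2 was higher with EMB in both vertebral compartments and lower in long bone. Rpa2 had a log2 difference of 0.89 (SE 0.13, adjusted p = 6.4e-06) in vertebral GFP+ cells, 0.51 (SE 0.13, adjusted p = 0.0026) in vertebral GFP- cells and -1.17 (SE 0.13, adjusted p = 1.1e-07) in long bone. Rpa1, at -0.42 (SE 0.19, adjusted p = 0.06) there, missed the threshold. After median-ratio scaling the vertebral GFP- difference of Rpa2 was 0.12 and missed it too.

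Nucleotide supply genes had the largest median differences of the roles in vertebral GFP+ cells, at 1.46, and in long bone, at -2.57. RRM2 is the regulatory subunit of ribonucleotide reductase, the enzyme that makes deoxynucleotides. Rrm2 was at 34.7, 30.9, 29.3 and 24.9 FPKM in the vertebral GFP+ EMB+ libraries and at 8.30, 10.9, 12.3 and 8.57 in their EMB- counterparts. Rrm2 values of vertebral GFP- cells were 28.6, 27.8, 38.7 and 27.9 FPKM with EMB and 83.5, 121, 99.3 and 73.1 without it. Long bone Rrm2 was at 19.4, 21.5, 16.8 and 19.2 FPKM in EMB+ libraries and at 260.8, 473.8, 191.6 and 116.4 in EMB- ones. Rrm2 did not overlap in any compartment, and 3 of the 4 long bone EMB- libraries exceeded all libraries of the other groups. Rrm2 had a log2 difference of 1.50 (SE 0.25, adjusted p = 3.6e-05) in vertebral GFP+ cells, -1.58 (SE 0.25, adjusted p = 1.5e-05) in vertebral GFP- cells and -3.51 (SE 0.25, adjusted p = 4.5e-11) in long bone. Rrm1 encodes the catalytic subunit. The Rrm1 values of vertebral GFP+ cells were 15.7, 19.8, 15.0 and 14.0 FPKM with EMB and 6.30, 6.17, 4.75 and 4.49 without. Vertebral GFP- Rrm1 values were 15.3, 17.8, 20.1 and 15.2 FPKM in EMB+ libraries and 20.2, 22.6, 22.8 and 17.2 in EMB- ones. For long bone Rrm1, EMB+ libraries gave 10.1, 10.5, 10.8 and 12.9 FPKM and EMB- libraries 45.0, 78.5, 31.4 and 19.0. Rrm1 overlapped between EMB states in vertebral GFP- cells alone. Rrm1 had a log2 difference of 1.41 (SE 0.24, adjusted p = 4.2e-05) in vertebral GFP+ cells, -0.26 (SE 0.24, adjusted p = 0.37) in vertebral GFP- cells and -1.71 (SE 0.24, adjusted p = 4.2e-06) in long bone. The level of Rrm2 over that of Rrm1 was 5.80 to 6.13 in long bone EMB- and 4.14 to 5.36 in vertebral GFP- EMB- libraries, and 1.32 to 2.58 in all other libraries.

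Tk1 encodes the S-phase thymidine kinase of the salvage pathway. Tk1 was at 13.8, 11.7, 14.7 and 11.4 FPKM in the vertebral GFP+ EMB+ libraries and at 3.00, 1.67, 2.09 and 2.69 in their EMB- counterparts. Tk1 values of vertebral GFP- cells were 11.5, 16.4, 13.5 and 11.6 FPKM with EMB and 16.1, 18.7, 22.3 and 17.8 without it. Long bone Tk1 was at 7.89, 5.70, 6.05 and 6.63 FPKM in EMB+ libraries and at 49.7, 84.5, 36.8 and 50.5 in EMB- ones. Long bone and vertebral GFP+ values of Tk1 separated by EMB, and vertebral GFP- values overlapped in 1 EMB+ library. Tk1 had a log2 difference of 2.06 (SE 0.18, adjusted p = 1.9e-09) in vertebral GFP+ cells, -0.47 (SE 0.18, adjusted p = 0.033) in vertebral GFP- cells and -2.84 (SE 0.18, adjusted p = 5.1e-12) in long bone. The vertebral GFP- call of Tk1 was lost without any 1 of EMB- replicates 2 and 3 or EMB+ replicates 1, 3 and 4, with differences of -0.49 to -0.39, and without the filter. Tyms makes thymidylate by the other route. The Tyms values of vertebral GFP+ cells were 18.8, 12.9, 17.3 and 10.8 FPKM with EMB and 7.83, 5.79, 5.90 and 7.74 without. Vertebral GFP- Tyms values were 16.7, 19.2, 17.4 and 16.3 FPKM in EMB+ libraries and 20.8, 27.3, 32.3 and 22.7 in EMB- ones. For long bone Tyms, EMB+ libraries gave 14.0, 11.9, 12.0 and 10.2 FPKM and EMB- libraries 62.8, 90.9, 48.8 and 56.9. Tyms separated in every compartment. Tyms had a log2 difference of 1.01 (SE 0.17, adjusted p = 4.7e-05) in vertebral GFP+ cells, -0.52 (SE 0.17, adjusted p = 0.015) in vertebral GFP- cells and -2.31 (SE 0.17, adjusted p = 1.1e-10) in long bone. Without EMB- replicate 3, the vertebral GFP- difference of Tyms was -0.41 and missed the threshold.

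**Figure D5:**
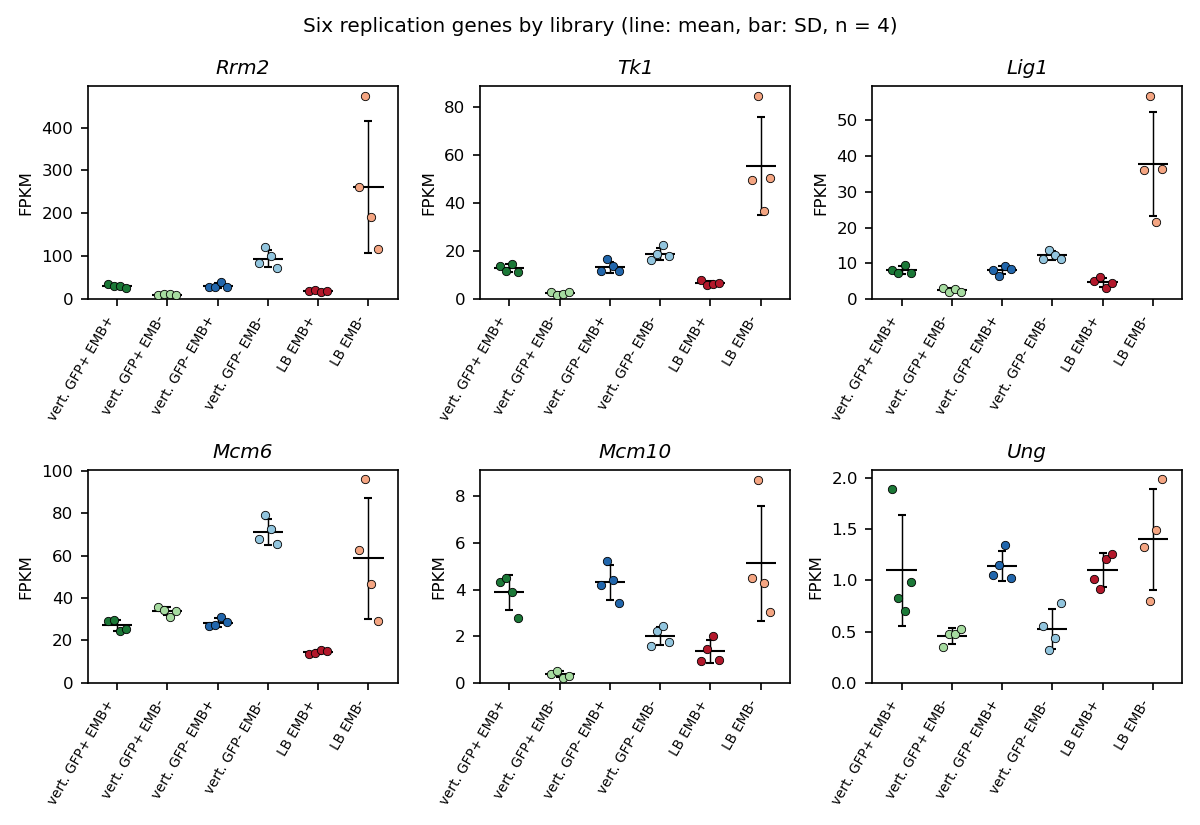
FPKM of Rrm2, Tk1, Lig1, Mcm6, Mcm10 and Ung in each library, with a line at the mean and bars for the SD over the 4 libraries of a group (vert., vertebral; LB, long bone). Rrm2, Tk1 and Lig1 share 1 shape, lowest in vertebral GFP+ EMB- and highest in long bone EMB- cells, while Mcm6 peaked in vertebral GFP- EMB- cells and Ung was at 1.99 FPKM or less in every library.

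The remaining genes serve chromatin assembly, DNA methylation, histone RNA and base repair. UHRF1 brings the maintenance methyltransferase to newly made DNA. Uhrf1 was at 4.92, 5.40, 5.67 and 4.68 FPKM in the vertebral GFP+ EMB+ libraries and at 1.42, 1.49, 1.26 and 1.38 in their EMB- counterparts. Uhrf1 values of vertebral GFP- cells were 5.71, 4.73, 6.99 and 5.36 FPKM with EMB and 10.8, 14.6, 15.5 and 10.5 without it. Long bone Uhrf1 was at 4.57, 4.15, 4.30 and 3.92 FPKM in EMB+ libraries and at 41.2, 67.4, 32.7 and 17.7 in EMB- ones. Uhrf1 separated the EMB states in every compartment, lower without EMB in vertebral GFP+ cells and higher without EMB in the other 2. Uhrf1 had a log2 difference of 1.37 (SE 0.23, adjusted p = 2.9e-05) in vertebral GFP+ cells, -1.04 (SE 0.23, adjusted p = 0.00052) in vertebral GFP- cells and -2.81 (SE 0.23, adjusted p = 3.4e-10) in long bone. CHAF1A and CHAF1B are subunits of the factor that places histones behind the fork. The Chaf1b values of vertebral GFP+ cells were 5.57, 7.43, 6.87 and 5.96 FPKM with EMB and 1.74, 1.68, 2.14 and 2.31 without. Vertebral GFP- Chaf1b values were 5.51, 6.09, 8.83 and 6.64 FPKM in EMB+ libraries and 6.35, 6.68, 5.39 and 4.11 in EMB- ones. For long bone Chaf1b, EMB+ libraries gave 3.93, 3.74, 3.84 and 3.83 FPKM and EMB- libraries 14.7, 24.3, 12.8 and 11.4. Chaf1b overlapped in vertebral GFP- cells and nowhere else. Chaf1b had a log2 difference of 1.33 (SE 0.18, adjusted p = 1.3e-06) in vertebral GFP+ cells, 0.23 (SE 0.18, adjusted p = 0.28) in vertebral GFP- cells and -1.74 (SE 0.18, adjusted p = 1.9e-08) in long bone. Chaf1a differed by 1.05 in vertebral GFP+ cells and by -1.01 in long bone, or by -1.41 in long bone without EMB- replicate 4, whose 2.45 FPKM lay below the 4 EMB+ values. Slbp, which binds the stem-loop of histone mRNAs, differed by 0.72, -0.55 and -1.92 in vertebral GFP+, vertebral GFP- and long bone cells, past the threshold in each.

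Ung, the glycosylase that removes uracil from DNA, was the least like the other members. Ung was at 1.89, 0.822, 0.698 and 0.985 FPKM in the vertebral GFP+ EMB+ libraries and at 0.347, 0.475, 0.480 and 0.527 in their EMB- counterparts. Ung values of vertebral GFP- cells were 1.05, 1.15, 1.34 and 1.02 FPKM with EMB and 0.558, 0.324, 0.438 and 0.777 without it. Long bone Ung was at 1.01, 0.915, 1.21 and 1.26 FPKM in EMB+ libraries and at 1.32, 0.800, 1.49 and 1.99 in EMB- ones. Ung was higher with EMB in both vertebral compartments without overlap, at levels mostly under 1.5 FPKM, and overlapped in long bone. Ung had a log2 difference of 0.50 (SE 0.16, adjusted p = 0.012) in vertebral GFP+ cells, 0.50 (SE 0.16, adjusted p = 0.011) in vertebral GFP- cells and -0.17 (SE 0.16, adjusted p = 0.43) in long bone. Vertebral GFP+ Ung missed the threshold without EMB+ replicate 1 (0.33), which held the highest value. After median-ratio scaling Ung missed it in both vertebral compartments, at 0.34 and 0.32.

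The signed EMB difference (EMB+ minus EMB-) was then compared between compartments, so that a higher value can mean more positive or less negative and says nothing of size. The GFP+ value exceeded the GFP- value in vertebrae for 24 of the 40 genes and was lower for 0, where 3.20% of tested genes had a higher value. The gap between the compartments was widest for Rrm2 at 3.07 (SE 0.36, adjusted p = 2.6e-06), Cdc6 at 2.55 (SE 0.39, adjusted p = 9.1e-05) and Tk1 at 2.53 (SE 0.26, adjusted p = 4.4e-07). Of the 8 polymerase and primase genes only Prim1 was among the 24, whereas all 4 nucleotide supply genes and all 4 licensing and firing genes were. The signed value in vertebral GFP+ cells was above that in long bone for 40 of 40 genes, where 25.0% of tested genes had this, with Rrm2 at 5.01 (SE 0.36, adjusted p = 8.5e-11) and Ung, the smallest, at 0.67 (SE 0.22, adjusted p = 0.025). In vertebral GFP- cells the signed value was above that in long bone for 38 genes, where 24.7% of tested genes had this, with the widest gap for Tk1 at 2.37 (SE 0.26, adjusted p = 2.3e-07). Chaf1a at 0.87 and Mcm6 at 0.51 missed the threshold. By size, the median EMB difference was greatest in long bone, at -1.64 against 0.97 and -0.17. The 3 comparisons share groups pairwise and are not independent of each other.

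GFP+ and GFP- vertebral cells differed in these genes when sorted without EMB. Between GFP+ and GFP- EMB+ cells 0 of 40 genes passed the limma threshold in either direction, where 2.10% of tested genes did, and 0 passed at an unadjusted p under 0.05 or under any alternative run. Their differences ran from -0.38 (Rfc4, SE 0.19) to 0.21 (Cdc6, SE 0.27), with a median of -0.05. Among EMB- cells 33 genes were lower in GFP+ than in GFP- cells and 0 higher, where 6.22% of tested genes were lower. The largest differences were those of Rrm2 at -3.10 (SE 0.25, adjusted p = 1.7e-09), Tk1 at -2.56 (SE 0.18, adjusted p = 1.7e-10) and Uhrf1 at -2.52 (SE 0.23, adjusted p = 1e-08). Pole, Pole2, Pold1, Pold2, Rfc3, Rfc5 and Ung did not pass. All 14 erythroid markers were lower in GFP+ EMB- cells as well, and their part in this difference was not tested.

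Against long bone, the EMB+ and EMB- cells of the vertebrae again gave different pictures. In EMB+ cells 8 of the 40 genes exceeded their long bone level in vertebral GFP+ cells, where 8.66% of tested genes did. In vertebral GFP- cells 10 of the 40 exceeded it, where 8.49% of tested genes did. Mcm10 led both, at 1.07 (SE 0.20, adjusted p = 0.00027) and 1.19 (SE 0.20, adjusted p = 8.7e-05), and Tk1, Mcm6, Lig1, Cdc45, Chaf1b and Rpa2 passed in both. The counts of 8 and 10 were 15 and 17 without long bone EMB- replicate 4, and again without its replicate 2. These libraries are in neither comparison and act on it only through the pooled spread and the filter. Past the threshold or not, 37 and 39 of the 40 genes had a positive difference in EMB+ cells. Their medians were 0.27 and 0.38, against -0.01 and 0.01 for all genes. Among EMB- cells 40 of 40 genes were lower in vertebral GFP+ than in long bone cells, where 40.4% of tested genes were lower, with a median of -2.16 against -0.27 for all genes. In vertebral GFP- EMB- cells 39 were lower than in long bone, where 40.2% of tested genes were lower, and Mcm6 at 0.40 did not pass. Both site comparisons use the same long bone libraries, and all 14 erythroid markers were lower in both vertebral EMB- groups, a part that was not tested.

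Other genes of replication, 60 of them tested, held more exceptions. Their differences passed the threshold unless it is said that they did not. In vertebral GFP+ cells 42 of the 60 were higher with EMB and 0 lower, where 42.1% of all tested genes were higher. Vertebral GFP- cells had 17 of 60 higher, where 41.7% of all tested genes were, and 9 lower, where 10.6% were. Long bone had 41 of 60 lower, where 16.0% of all tested genes were, and 3 higher, where 2063 of 11767 tested genes were. The median differences of the 60 genes were 0.68, 0.07 and -1.02, against 0.32, 0.30 and 0.08 over all genes. Gmnn, the inhibitor of licensing, had means of 6.39 ± 1.05 and 1.32 ± 0.400 FPKM with and without EMB in vertebral GFP+ cells and of 4.05 ± 0.391 and 30.4 ± 8.89 with and without it in long bone. The Asf1b gene, which encodes a histone chaperone, differed by 1.97 and -2.95 in vertebral GFP+ and long bone cells. E2f2, an activating E2F factor, was at 17.1 ± 3.40 FPKM without EMB in vertebral GFP- cells, at 68.1 ± 37.9 without EMB in long bone, and at 1.81 or less on average in the other 4 groups. Among named genes, Nme1, a nucleoside diphosphate kinase, and Cdca7, a chromatin factor, were higher with EMB in all 3 compartments. Nme1 differed by 1.54, 1.55 and 0.83 and Cdca7 by 1.38, 1.69 and 0.75 in vertebral GFP+, vertebral GFP- and long bone cells. Samhd1, which breaks down deoxynucleotides, differed by 1.10 and 1.15 in the vertebral compartments and by -0.06 in long bone, which did not pass. The named fork genes Clspn, Rpa3 and Atad5 differed by -2.53, -0.31 and -1.30 in long bone, and the Rpa3 difference did not pass. Donson and Ticrr, which act in origin firing, differed by -2.37 and -1.76 there. The salvage kinase Dck differed by 1.06, -1.44 and -2.97 in the 3 compartments in that order. Fbxo5 and Ccne1, regulators of S-phase entry, differed by 0.80 and 1.08 in vertebral GFP+ cells and by -3.41 and -3.02 in long bone. Nasp, a histone chaperone, differed by 0.59 and -0.89 in those compartments.

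Genes of mitosis were checked in the same way. All 25 tested were higher with EMB in vertebral GFP+ cells, 23 were lower in long bone, and 2 were higher and 6 lower in vertebral GFP- cells, against the same shares of all tested genes. The median differences of this list were 1.73, -1.94 and -0.10. Ube2c, of the anaphase machinery, was at 23.1 ± 1.68 and 6.02 ± 1.59 FPKM with and without EMB in vertebral GFP+ cells and reached 215 ± 83.5 in long bone EMB- cells. Birc5, a chromosomal passenger protein, differed by 2.21, -0.65 and -2.76 and Ccnb2, a mitotic cyclin, by 2.13, -0.57 and -2.52 in vertebral GFP+, vertebral GFP- and long bone cells. By Pearson correlation over the 24 libraries, the genes most like the median of the members were Ccnb2 (0.986), Gmnn (0.985), Cdca8 (0.982), Birc5 (0.981), Nusap1 (0.981), Ncapd2 (0.979), Cdkn3 (0.978) and Asf1b (0.977). Among the members, likeness to the median of the others was 0.98 for Mcm3, Mcm5, Mcm7, Pcna, Tyms, Rfc4 and Fen1, and was lowest for Ung (0.41), Mcm6 (0.52), Pold2 (0.64) and Pole2 (0.66). These correlations describe 24 libraries that share 6 group means and are given without a test.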

How the data were processed

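RNA was sequenced from 24 libraries made with SMART-Seq v4 and Nextera XT, per the labels' protocols. The authors deposited 1 table of FPKM per gene, and bcl2fastq 2.19, STAR 2.5.2, Cufflinks 2.1.1 and build GRCm38 are named in the submitters' processing notes. FPKM carries no read depth here, so depth is unknown and no counting interval is given. Of 22053 entries, 46 repeated an identifier, 56 repeated a symbol and 3 genes had failed values, which left 21948 genes. The 11767 genes that reached an FPKM of 1 in 4 or more libraries were tested. log2(FPKM + 1) was fitted over all 24 libraries and 6 groups with limma 3.58.1 in R 4.3.3 (trend and robust estimation, 18 residual degrees of freedom), two-sided, with Benjamini-Hochberg adjustment over all 11767 genes at 0.05 in each of 12 comparisons. The fit was also run on simulated data with the same spread in every group. Real groups spread unequally, so that run does not show how the fit handles them. On this scale the change of genes with low values is understated.

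Groups came from the cell type labels. Replicate numbers of long bone EMB+ libraries only name them. Elsewhere the numbers come from the titles, which call them biological replicates but do not say whether a number marks a shared animal. Same-numbered libraries had correlated deviations above 0.1 in all 4 pairs for 5 of 6 pairs of vertebral groups. A fit with the replicate number as a block was an alternative, as were other pseudocounts (0.1 and 5), no filter, a stricter filter (FPKM of 5), quantile and median-ratio scaling, library weights, only the compared groups, and leaving out each library.

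The genes and lists were chosen with earlier results of these data known. Values in every library are given for the 4 genes with the smallest adjusted p in each direction of the EMB comparisons and of their differences, and for genes whose call differed from most of their role, 21 in all. Up to 3 genes per other list are named by smallest adjusted p.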

Additional observations from a re-analysis of the deposited data

Results flagged for a closer look

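Among the 126 pairs of a gene described in every library and a group of 4, 3 held a library whose gap to its nearest neighbour took up an unusually large part of the group's range, and some such pairs arise by chance. Rrm2 was at 38.7 FPKM in vertebral GFP- EMB+ replicate 3, where the other 3 libraries held 27.8 to 28.6. Fen1 was at 13.8 FPKM in vertebral GFP+ EMB+ replicate 1, above 9.23 to 9.64 in the others. Orc1 was at 1.41 FPKM in the same library, above 0.312 to 0.472.

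The signed EMB difference (EMB+ minus EMB-) differed between compartments by the test of that difference in limma. It was higher, meaning more positive or less negative, in vertebral GFP+ than in vertebral GFP- cells for 24 of 40 replication genes, against 3.20% of tested genes. It was above the long bone value for 40 genes in vertebral GFP+ cells, against 25.0% of tested genes, and for 38 in vertebral GFP- cells, against 24.7%. By size, the median difference was greatest in long bone, at -1.64, against 0.97 in vertebral GFP+ and -0.17 in vertebral GFP- cells.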

How the results depend on the processing

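Over 63 pairs of a named gene and an EMB comparison, 1976 of 2043 alternative values kept their side of the threshold, 54 lost it and 13 gained it. A reversed direction with either value past the threshold occurred 0 times. Changes of direction between values that both missed the threshold were counted as kept. Counts of genes moved as follows, and shares of all tested genes under these settings are not given. In vertebral GFP+ cells the count lower with EMB went from 0 to 1 under quantile normalization, median-ratio scaling, library weights and only the compared groups, and was 0 to 1 over fits without 1 library, the gene being Mcm6. In vertebral GFP- cells the count higher went from 5 to 2 under the stricter filter, 1 under quantile normalization, 0 under median-ratio scaling and 8 with only the compared groups, and was 3 to 6 without 1 library (3 without EMB- replicate 1 and without EMB+ replicate 3). The count lower there went from 12 to 19 under quantile normalization and 21 under median-ratio scaling, and was 8 to 13 without 1 library. In EMB+ cells the count above long bone in vertebral GFP+ cells went from 8 to 16 with library weights and 18 with only the compared groups, and was 7 to 15 without 1 library. The count for vertebral GFP- against long bone went from 10 to 18 under both settings, and was 7 to 17. In EMB- cells the count above long bone in vertebral GFP- cells went from 0 to 1 under quantile normalization and median-ratio scaling, and was 0 to 1 without 1 library. Long bone EMB- libraries act on the EMB+ comparisons with long bone only through the pooled spread and the filter. The causes were otherwise not tested. With the replicate number as a block, the signed EMB difference was higher in vertebral GFP+ than in GFP- cells for 22 genes in place of 24, and the other counts that could be paired did not change. No paired analysis was possible for comparisons with long bone EMB+ libraries, whose titles share 1 number. The stricter filter kept 33 of the 40 genes. Calls that held under every alternative but that filter numbered 24 of 37 in vertebral GFP+, 7 of 17 in vertebral GFP- and 32 of 37 in long bone cells. Depth is unknown, so genes near 1 FPKM, such as Orc1, Ung and Pole, are the least certain.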
